A study of Mus musculus with 6 samples.

Results

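Cadm1 and the nectin-family adhesion genes were described in nuclei of subcutaneous TC1 tumors grown in mice with or without induced deletion of MCT2, a monocarboxylate transporter encoded by Slc16a7. The 10 genes were Cadm1, Cadm2, Cadm3, Cadm4, Crtam, Nectin1, Nectin2, Nectin3, Pvr and Cd226, out of 22623 genes in each count matrix, and each symbol was found once. They were chosen by name with their levels per cell class and library in these data already known, so class levels are given below as a description with no test.

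These genes encode single-pass membrane proteins of the immunoglobulin superfamily that hold neighboring cells together without calcium. Nectins pair with themselves or with another nectin across the gap between cells, with Nectin3 binding Nectin1 and Nectin2, and the scaffold protein afadin (Afdn) couples them to actin at adherens junctions. The Cadm proteins (nectin-like molecules) pair in a similar way and bind band 4.1 and PDZ-domain scaffolds inside the cell. Several members double as immune ligands and receptors. Cadm1 is the ligand of Crtam, a receptor of activated CD8 T and NK cells, and Pvr and Nectin2 are ligands of the activating receptor Cd226 and of the inhibitory receptor Tigit, and Pvr also binds Cd96.

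Both groups of mice were MCT2loxP/loxP; Cre+ on a C57BL/6 background, with a tamoxifen-inducible Cre. KO mice received tamoxifen as adults and CO mice received vehicle, so the deletion and tamoxifen itself cannot be told apart here. TC1 is a mouse lung epithelial tumor line that was injected under the skin afterwards, so the gene was deleted in the host and not in the tumor cells, and the labels give the tissue as lung. There were 3 CO and 3 KO libraries of single nuclei, each one labelled as a replicate, and the study's methods call them biological replicates. Some samples had additional washes against free RNA, and which ones is not given in the sources used here.

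The libraries held 13252572 to 22057084 unique molecular identifiers (UMIs, each counting 1 captured RNA molecule), and 17514 nuclei were kept, 7660 of them CO and 9854 KO. A class was given to each nucleus by its counts of marker genes, none of which was a member. There were 9100 tumor-like, 6289 macrophage-like, 506 T/NK-like, 60 dendritic-like and 71 endothelial-like nuclei, with 473 nuclei near the cut between classes. The tumor-like class held 84.1% of all UMIs and the macrophage-like class 10.1%, with a median of 5173.5 and 1063 UMIs per nucleus. Of 18726 different barcode sequences, 61 occurred in more than 1 library. Summed over all nuclei, the deviations of KO replicate 1 from its group mean correlated with those of CO replicates 1 and 2 (r = 0.52 and 0.38 across genes), and those of KO replicates 2 and 3 with CO replicate 3 (0.35 and 0.40), so results below are also given without KO replicate 1 where that moves them. Slc16a7 itself was not lower in the KO libraries: its macrophage-like level, in UMIs per 1000000 UMIs of that class and library (CPM), was 95.6, 89.9 and 151 for CO against 120, 92.0 and 138 for KO (edgeR log2 fold change 0.08, adjusted p = 0.914). The position of the deleted part is not given in the sources used here, and reads were counted near the 3′ end, so this value does not check the labels.

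The promoters of Nectin3 and Cadm4 are shown because these members passed the test of KO against CO when KO replicate 1 was left out. Those fits also passed 16.2% of all genes in macrophage-like nuclei (for Nectin3) and 20.8% in tumor-like nuclei (for Cadm4). With all 6 libraries no gene passed, so these members were not singled out. RefSeq (GRCm38.p6) gave a promoter window for 5 of the 10 members, namely Cadm2, Cadm3, Cadm4, Nectin2 and Nectin3. Each sequence below is the 250 bases before the annotated start, 5′ to 3′ on the gene's own strand, and capitals mark GGGCGG (the GC box of Sp factors) or its reverse complement. The Nectin3 window lies at chr16:46496968-46497217 on the minus strand, and the Cadm4 window at chr7:24481773-24482022 on the plus strand. The start used is that of RefSeq, which can differ from the gene spans given further below. The Nectin3 and Nectin2 windows lie inside those spans, and the Cadm4 window lies directly before its span.
Nectin3: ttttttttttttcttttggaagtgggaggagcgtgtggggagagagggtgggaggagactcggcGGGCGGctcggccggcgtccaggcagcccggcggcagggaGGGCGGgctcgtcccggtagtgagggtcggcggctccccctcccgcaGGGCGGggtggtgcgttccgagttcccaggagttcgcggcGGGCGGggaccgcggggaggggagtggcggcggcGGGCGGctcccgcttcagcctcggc
Cadm4: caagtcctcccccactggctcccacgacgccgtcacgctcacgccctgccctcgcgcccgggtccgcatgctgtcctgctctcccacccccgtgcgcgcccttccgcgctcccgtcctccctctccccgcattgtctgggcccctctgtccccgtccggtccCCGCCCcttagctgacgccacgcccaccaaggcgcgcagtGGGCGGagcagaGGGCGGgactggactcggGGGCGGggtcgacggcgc
Both windows were rich in CpG, with 30 CpG each and 73.2% G and C in Nectin3 and 75.2% in Cadm4, against a median of 6 CpG over 32851 promoter windows of the same length. The GC box occurred 5 times in Nectin3, 4 times in Cadm4, 2 times in Nectin2, once in Cadm2 and not at all in the Cadm3 window, and 32.7% of all windows held at least 1. TGANTCA (AP-1) was found in the Cadm3 window alone, against 6.75% of all windows, and CCGGAA (ETS) in the Nectin2 window alone, against 12.03%. Both strands were searched, and these are matches of letters only.

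Cadm1 counts came mainly from macrophage-like nuclei. Cadm1 (ENSMUSG00000032076) spans bases 47530173 to 47857637 of chromosome 9 (GRCm38, plus strand) and has 13 merged exons. In macrophage-like nuclei it stood at 941, 955 and 987 CPM in CO and at 624, 1082 and 1593 CPM in KO (mean 1030 ± 316, SD, n = 6 libraries). In tumor-like nuclei it reached 8.80, 11.3 and 18.6 CPM in CO and 11.3, 14.8 and 33.5 CPM in KO. T/NK-like nuclei had 37.5, 79.3 and 26.1 CPM (CO) and 62.6, 36.5 and 246 CPM (KO). The macrophage-like level lay above both other classes in 6 of 6 libraries, by 12.7 times the T/NK-like mean and 62.9 times the tumor-like mean, while tumor-like and T/NK-like levels overlapped. Of 10552 Cadm1 UMIs, 81.3% came from macrophage-like nuclei, which gave 10.1% of all UMIs.

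Free RNA in a droplet can be counted with any nucleus, so Cadm1 levels outside the macrophage-like class were set beside those of the 20 macrophage marker genes. In tumor-like nuclei Cadm1 stood at 0.936% to 2.10% of its macrophage-like level, and the macrophage markers at 5.78% to 12.4% of theirs. In T/NK-like nuclei Cadm1 stood at 2.65% to 15.4%, and the markers at 9.68% to 18.5%. Cadm1 was below the markers in 6 of 6 libraries in both classes, so its counts there did not exceed the share that the macrophage markers had in those nuclei.

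**Figure D1:**
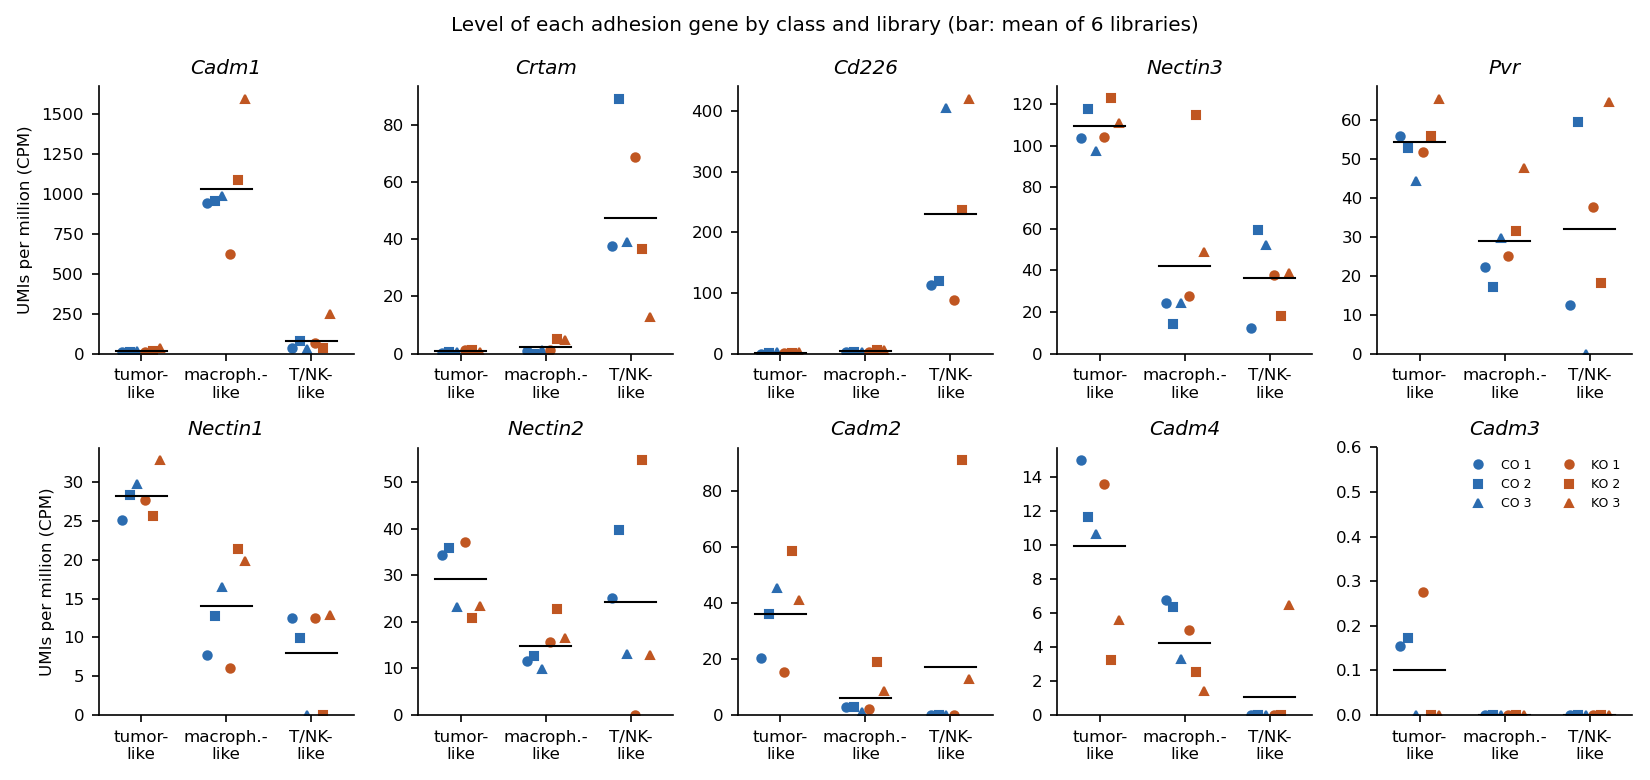
Level of each adhesion gene (vertical axis, CPM) in tumor-like, macrophage-like and T/NK-like nuclei; each point is 1 library, blue for CO and orange for KO, and the bar is the mean of 6 libraries. Cadm1 lies above both other classes in macrophage-like nuclei, Crtam and Cd226 in T/NK-like nuclei, and Nectin1 in tumor-like nuclei. For each other member the range of the highest class overlaps that of another class.

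Single macrophage-like nuclei varied widely in Cadm1. At least 1 Cadm1 UMI was found in 46.6%, 47.2% and 45.8% of them in the CO libraries, against 37.1%, 51.5% and 57.0% in the KO libraries. The 10% of nuclei with the most Cadm1 held 46.2% to 53.4% of the Cadm1 UMIs of a library. The share was also taken at 1 depth, by thinning to 1000 UMIs the 3483 of 6289 nuclei that had at least that many and leaving out the shallower ones. There CO averaged 50.2% ± 0.0883 and KO 51.1% ± 14.8 (SD over 3 libraries a group; two-sided exact permutation p = 0.7, where 0.1 is the smallest possible). The 3 CO libraries were nearly alike and the KO libraries ran from 35.7% to 65.3%, on both sides of them. At the same thinning 0.504% to 4.25% of tumor-like and 3.33% to 14.5% of T/NK-like nuclei had a Cadm1 UMI.

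Within the macrophage-like class, Cadm1 was higher in nuclei with Mrc1 or Stab1 than in nuclei with Slfn4 or Ccr2. Nuclei with a UMI of Mrc1 (the mannose receptor CD206) or Stab1 (a scavenger receptor), and none of Slfn4 or of the monocyte chemokine receptor Ccr2, numbered 1867, and 831 nuclei had the reverse. Cadm1 stood at 1087, 1118 and 1284 CPM in CO and 892, 2021 and 1580 CPM in KO in the former. In the latter it stood at 604, 453 and 335 CPM in CO and 296, 715 and 1396 CPM in KO. It was higher in the Mrc1 or Stab1 nuclei in 6 of 6 libraries (1330 ± 409 against 633 ± 406 CPM, SD; two-sided exact sign-flip p = 0.0312, the smallest that 6 libraries can give, and 0.141 adjusted over the 9 such splits tested). These splits were chosen after class levels had been seen. For Nectin1, Nectin2, Nectin3 and Pvr the same split gave exact p from 0.25 to 0.875, with the Mrc1 or Stab1 nuclei higher in 2 or 3 of 6 libraries.

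Dendritic-like nuclei were too few for levels per library and were summed over all 6. Cadm1 had 31 UMIs in 15 of these 60 nuclei, a level of 388 CPM with a 95% Poisson interval of 264 to 551, which covers counting error only, and 250 CPM (137 to 420) without KO replicate 1, which held 17 of them. With all libraries the level was 36.5% of the macrophage-like level, where the 20 macrophage markers stood at 19.6% of theirs. Those markers also set the class, which holds their share down, so a higher Cadm1 share need not mean expression in dendritic cells. Split by the marker genes of cross-presenting cDC1 cells (such as Xcr1 and Clec9a) and of mature dendritic cells (such as Ccr7 and Fscn1), 42 nuclei on the cDC1 side held all 31 UMIs, at 558 CPM (379 to 792). The 17 nuclei on the mature side held 0, which allows up to 156 CPM. The 71 endothelial-like nuclei held 13 Cadm1 UMIs, at 67.7 CPM (36.0 to 116), and 11 of these were from KO replicate 3, without which it was 15.1 CPM (1.82 to 54.4). With all libraries that was 6.36% of the macrophage-like level, against 11.8% for the macrophage markers.

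**Figure D2:**
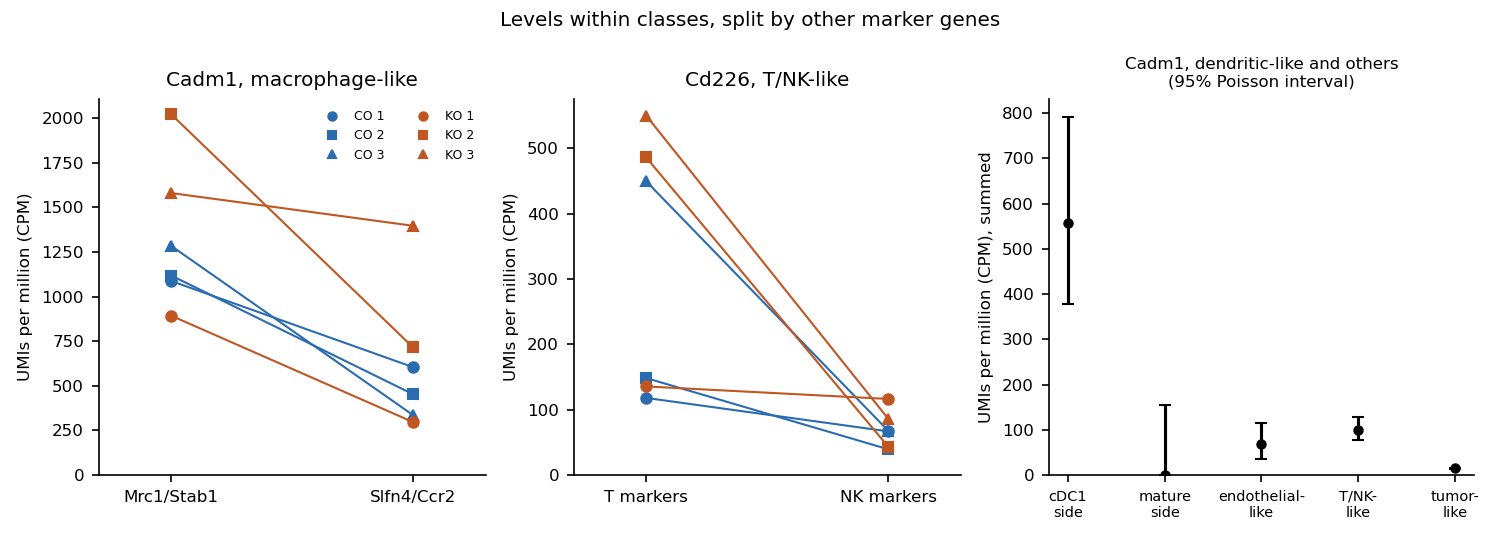
Cadm1 in macrophage-like nuclei and Cd226 in T/NK-like nuclei, each split by other marker genes (vertical axes, CPM; lines join the 2 sides of 1 library), and Cadm1 summed over 6 libraries in 5 further sets of nuclei with 95% Poisson intervals. In both split panels the line falls from left to right in 6 of 6 libraries, and cDC1-side nuclei lie at 558 CPM against 0 on the mature side.

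Crtam, the receptor of Cadm1, was a rare transcript of the T/NK-like class. Crtam (ENSMUSG00000032021, chromosome 9 at 40969691 to 41004628, minus strand) had 123 UMIs in all, 30 of them in T/NK-like nuclei. Its T/NK-like level was 37.5, 89.2 and 39.2 CPM in CO, from 3, 9 and 3 UMIs, and 68.9, 36.5 and 12.9 CPM in KO, from 11, 2 and 2 UMIs. The other classes stood at 2.16 ± 2.15 CPM (macrophage-like) and 0.77 ± 0.389 CPM (tumor-like), below every T/NK-like value. Since tumor-like nuclei hold most of the UMIs, that low level still made up 44.7% of all Crtam UMIs. Among T/NK-like nuclei, those with NK marker genes alone held 12 Crtam UMIs at 57.1 CPM (29.5 to 99.7), and those with T marker genes alone held 3 UMIs at 17.0 CPM (3.51 to 49.7). The exact sign-flip p of that difference over libraries was 0.25. The 52 nuclei with Cd8a or Cd8b1 held 0 Crtam UMIs, which allows up to 59.3 CPM, and the 214 other nuclei with T markers held 11 (43.8 CPM, 21.9 to 78.4). At this depth a difference between the lymphocyte subsets was not detectable.

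Cd226, the activating receptor of Pvr and Nectin2, was likewise highest in T/NK-like nuclei. Cd226 (ENSMUSG00000034028, chromosome 18 at 89176967 to 89272229, plus strand) stood there at 113, 119 and 405 CPM in CO and at 87.7, 237 and 420 CPM in KO (230 ± 150, n = 6). Macrophage-like nuclei had 3.59 ± 1.92 CPM and tumor-like nuclei 0.89 ± 1.17 CPM, below the T/NK-like values in each library. Nuclei with T marker genes alone had 118, 148 and 449 CPM in CO and 135, 486 and 550 CPM in KO. Nuclei with NK marker genes alone had 66.8, 39.5 and 68.0 CPM in CO against 116, 43.6 and 86.3 CPM in KO. The T side was higher in 6 of 6 libraries (314 ± 201 against 70.1 ± 28.5 CPM; exact sign-flip p = 0.0312, adjusted 0.141 over the same 9 splits), from 66 UMIs in 159 nuclei against 16 UMIs in 146 nuclei. The other receptors for Pvr or Nectin2 were fewer in counts: Cd96 had 93 UMIs in T/NK-like nuclei (141 ± 50.8 CPM), Tigit 8 UMIs, and Pvrig, an inhibitory receptor for Nectin2, 4 UMIs.

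Nectin3 (ENSMUSG00000022656, chromosome 16 at 46387706 to 46498525, minus strand) was highest in tumor-like nuclei among the 3 classes with levels in every library. It stood there at 104, 118 and 97.6 CPM in CO and at 104, 123 and 111 CPM in KO. These libraries were close to each other (109 ± 9.61 CPM). Of 8099 Nectin3 UMIs, 91.4% were from tumor-like nuclei, which gave 84.1% of all UMIs. Macrophage-like nuclei had 24.1, 14.2 and 24.1 CPM in CO and 27.8, 115 and 49.0 CPM in KO. KO replicate 2 thus reached the tumor-like range and the classes overlapped across libraries, although the tumor-like level was the higher one within each library. T/NK-like nuclei had 36.5 ± 18.4 CPM from 24 UMIs, and the 12 fibroblast-like nuclei held 6 UMIs at 183 CPM (67.3 to 399).

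Nectin1 and Nectin2, the partners that Nectin3 binds, had 89.8% and 88.5% of their UMIs in tumor-like nuclei. That is close to the 84.1% of all UMIs that this class gave. Nectin1 (ENSMUSG00000032012, chromosome 9 at 43743984 to 43807461, plus strand) was steady across libraries, from 25.1 to 32.9 CPM in tumor-like nuclei, above its 6.12 to 21.4 CPM in macrophage-like nuclei and at most 12.9 CPM in T/NK-like nuclei. Dendritic-like nuclei held 10 Nectin1 UMIs at 125 CPM (60.1 to 230), 5 on the cDC1 side and 5 on the mature side (75.9 CPM without CO replicate 3, which held 5), and endothelial-like nuclei held 0 (up to 19.2 CPM). Nectin2 (ENSMUSG00000062300, chromosome 7 at 19716644 to 19750483, minus strand) stood at 34.4, 35.8 and 23.1 CPM in tumor-like nuclei of CO and at 37.2, 20.8 and 23.4 CPM in KO. Its macrophage-like level of 14.8 ± 4.57 CPM reached the tumor-like range in KO replicate 2 (22.7 against 20.8 CPM). T/NK-like Nectin2 spread from 0 to 54.7 CPM (mean 24.2) on 12 UMIs. It lay above the tumor-like level in CO replicate 2 (39.6 against 35.8 CPM) and in KO replicate 2 (54.7 against 20.8 CPM). Among these 3 classes, tumor-like nuclei were thus the highest for Nectin2 in 4 of 6 libraries. In endothelial-like nuclei Nectin2 and Nectin3 had 17 UMIs each, at 88.5 CPM (51.6 to 142), with Afdn, their scaffold, at 416 CPM from 80 UMIs. The tumor markers stood at 34.3% of their tumor-like level in those nuclei, against 294% for Nectin2 and 80.1% for Nectin3. These markers also set the class, which holds their share down. Afdn had 186 ± 30.4 CPM in tumor-like nuclei and 106 ± 41.2 CPM in macrophage-like nuclei. The fourth nectin, Nectin4, showed another order: 13.2 ± 3.47 CPM in macrophage-like nuclei against 0.69 CPM in tumor-like nuclei.

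Pvr (ENSMUSG00000040511, chromosome 7 at 19903578 to 19921160, minus strand), the ligand shared by Cd226, Tigit and Cd96, stood at 56.0, 52.8 and 44.2 CPM in tumor-like nuclei of CO and at 51.7, 56.0 and 65.5 CPM in those of KO. Its macrophage-like level was 22.2, 17.0 and 29.6 CPM for CO, against 25.04, 31.5 and 47.6 CPM for KO. The ranges of these classes overlapped across libraries, although the tumor-like level was the higher one in each library. T/NK-like Pvr spread from 0 to 64.7 CPM on 24 UMIs and overlapped both.

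The other Cadm genes did not share the class of Cadm1. Cadm2 (ENSMUSG00000064115, chromosome 16 at 66655421 to 67620908, minus strand), best known as a synaptic adhesion molecule, stood at 20.4, 36.1 and 45.4 CPM in tumor-like nuclei of CO and at 15.4, 58.7 and 41.2 CPM in KO, with 6.07 ± 6.79 CPM in macrophage-like nuclei. T/NK-like nuclei had 17.3 ± 36.5 CPM of Cadm2 from 7 UMIs. In KO replicate 2 they had 91.1 CPM from 5 UMIs, above the tumor-like 58.7 CPM. A Cadm2 UMI was found in 6.28% to 17.8% of tumor-like nuclei, without thinning to 1 depth. The top 10% of nuclei held 82.1% to 100% of its UMIs. With so few nuclei positive, that share is nearly set in advance and does not measure unevenness. Cadm4 (ENSMUSG00000054793, chromosome 7 at 24482023 to 24504539, plus strand), a Cadm of epithelia and Schwann cells, had 15.0, 11.6 and 10.7 CPM in tumor-like nuclei of CO and 13.6, 3.26 and 5.56 CPM in KO. KO replicates 2 and 3 lay below the CO libraries, and KO replicate 1 among them. Cadm3 (ENSMUSG00000005338, chromosome 1 at 173333258 to 173367695, minus strand) had 8 UMIs in all, each in a tumor-like nucleus, and none in macrophage-like or T/NK-like nuclei.

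For the genes with a higher mean in tumor-like than in macrophage-like and T/NK-like nuclei, the macrophage-like level was set beside that of the 16 tumor marker genes. These markers also set the class, and nuclei with many of their UMIs were classed elsewhere, which holds the marker share down, so a member above it need not be expressed in macrophages. The markers stood at 6.00%, 5.59% and 8.04% of their tumor-like level in CO and at 6.36%, 16.5% and 15.0% in KO. Pvr stood at 32.2% to 72.8% of its tumor-like level, Nectin1 at 22.1% to 83.5%, Nectin2 at 33.7% to 109%, Cadm4 at 25.4% to 77.3%, Cadm2 at 2.42% to 32.2% and Nectin3 at 12.1% to 93.1%. KO replicates 2 and 3 were the highest both for the markers and for Nectin3.

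**Figure D3:**
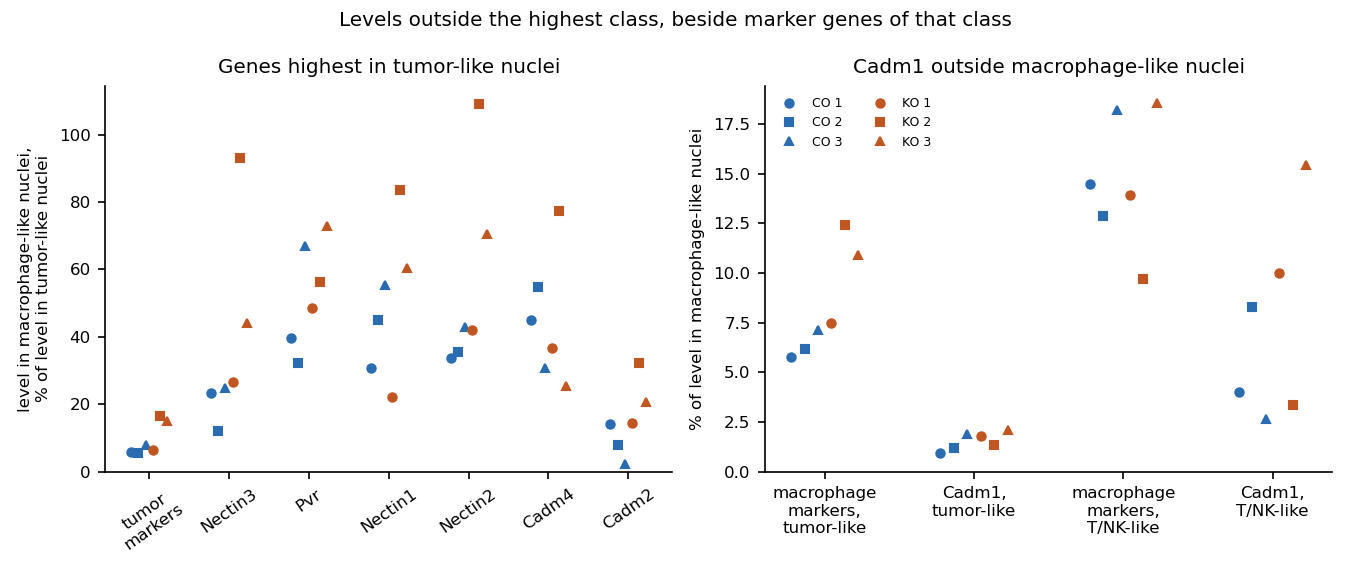
Left, level in macrophage-like nuclei as percent of the level in tumor-like nuclei for the 16 tumor markers together and for 6 members; right, level of Cadm1 and of the 20 macrophage markers in tumor-like and T/NK-like nuclei as percent of the macrophage-like level. Each point is 1 library; the tumor markers, which also set the class, run from 5.59% to 16.5%, and Cadm1 lies below the macrophage markers in both classes.

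Likeness of pattern was taken over the 18 sums of 3 classes in 6 libraries, as Pearson's r of log2(CPM + 1) against 11430 genes. These sums share libraries, depth and class, so r is a description. Cadm1 was most like Slc8a1 (0.98), Lyn (0.97) and Tmcc3 (0.97), and Cadm2 most like Rgs20 (0.98), Asap3 (0.96) and Stk33 (0.96). Nectin3 was closest to Lancl3 (0.94), Ift74 (0.94) and Atad2 (0.93), Nectin1 to Pacsin3 (0.97), Zmym3 (0.96) and Gm20517 (0.96), and Pvr to Btc (0.96), Fem1b (0.95) and Cenpi (0.95). Nectin2 followed Josd1 (0.93), Harbi1 (0.91) and Apol9a (0.91), and Cadm4 followed 1700061G19Rik (0.94), Hspa2 (0.94) and Ccdc159 (0.93). Between members, r ran from -0.48 for Cadm1 with Nectin3 to 0.76 for Nectin1 with Pvr.

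KO was then compared with CO on UMI counts summed per library, over all genes, with a gene called at an absolute log2 fold change of at least 0.58 and an edgeR adjusted p of at most 0.05. No member passed in any of the 4 sums, and neither did any other gene: 0% of 13662 genes in all nuclei, 0% of 13060 in tumor-like, 0% of 10105 in macrophage-like and 0% of 2444 in T/NK-like nuclei were called. At an unadjusted edgeR p under 0.05 there were 661, 866, 642 and 146 genes, and DESeq2 called 10, 22, 2 and 0. Of the 10 members, 9, 7, 5 and 1 had enough counts to be tested. The KO and CO libraries did not overlap for 1 of 9 members in all nuclei, 0 of 7 in tumor-like, 2 of 5 in macrophage-like and 0 of 1 in T/NK-like nuclei, where 10.9%, 12.5%, 12% and 12.5% of all tested genes did not overlap.

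Cadm1 did not pass in any sum. The edgeR estimate in macrophage-like nuclei was 0.20 on the log2 scale (SE 0.33, adjusted p = 0.825), with KO replicate 1 lowest and KO replicate 3 highest of all 6 libraries, and it was -0.15 without KO replicate 3. In all nuclei it was 0.65 (SE 0.60, adjusted p = 0.679) and without KO replicate 3 it was -0.42. In tumor-like nuclei it was 0.71 (SE 0.45, adjusted p = 0.585), with 0.14 without KO replicate 3 and 1.63 when nuclei were classed by clusters.

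Nectin3 in macrophage-like nuclei had the largest fold change among the members tested. By edgeR it was 1.60 on the log2 scale (SE 0.54), with an adjusted p of 0.664 and 0.0181 before adjustment. All 3 KO libraries were above the 3 CO libraries, by little in KO replicate 1 (27.8 against at most 24.1 CPM). Without KO replicate 1 it was called, at 1.95 (SE 0.40, adjusted p = 0.0221), in a fit that called 1642 of 10138 genes (16.2%), 776 higher and 866 lower. It was 0.91 without KO replicate 2. With nuclei classed by clusters it was 0.70 (adjusted p = 0.783), and over 14 alternatives the fold change ran from 0.70 to 1.95. The 16 tumor marker genes, summed in the same nuclei, stood at 711, 730 and 1501 CPM in CO and at 777, 3954 and 3142 CPM in KO, and their part in the difference was not tested. The tumor-like fold change of Nectin3 was 0.17 on the same scale (SE 0.17, adjusted p = 0.634).

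Nectin2 was the other macrophage-like member without overlap, at 11.6, 12.7 and 9.88 CPM in CO against 15.6, 22.7 and 16.5 CPM in KO. The edgeR log2 fold change was 0.65, with SE 0.32 and an adjusted p of 0.664, and it was 0.12 with nuclei classed by clusters and 0.33 under stricter limits on nuclei. Pvr had 0.63 (SE 0.35) and Nectin1 0.34 (SE 0.53) in those nuclei, with adjusted p of 0.664 and 0.820 by edgeR, and over 14 alternatives they ran from 0.31 to 0.92 and from 0.09 to 0.74. In tumor-like nuclei the same genes were nearer 0, at -0.13 (SE 0.27) for Nectin2, 0.26 (SE 0.18) for Pvr and 0.13 (SE 0.16) for Nectin1.

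Cadm4 had the lowest fold change among members in tumor-like nuclei, at -0.68 (SE 0.47, edgeR adjusted p = 0.585). Without KO replicate 1 it was called, at -1.43 (SE 0.30, adjusted p = 0.0294), in a fit that called 2741 of 13188 genes (20.8%), 924 higher and 1817 lower. It was -0.33 (adjusted p = 0.989) without KO replicate 2 and -0.51 (adjusted p = 0.889) without KO replicate 3. Cadm2 had 0.30 (SE 0.51, adjusted p = 0.776) there. For the lymphocyte receptors, Cd226 had 0.25 (SE 0.57, adjusted p = 0.923) in T/NK-like nuclei, and Crtam was tested in all nuclei alone, at 0.58 (SE 0.43, adjusted p = 0.672). In that sum the KO libraries all lay above CO for Crtam in normalized CPM, at 1.87 ± 0.0580 against 1.27 ± 0.585. In CPM without this normalization the groups overlapped, at 1.83 ± 0.0604 for KO and 1.31 ± 0.622 for CO. The T/NK-like mean of Crtam was 39.4 CPM in KO and 55.3 CPM in CO, also with overlap. Shares of nuclei with a UMI, thinned to 1000 UMIs, were compared for 8 members in the class with the most UMIs of each. They gave exact permutation p of 0.2 or more, and 0.8 after adjustment over these 8. A member needed a UMI in at least 1% of the nuclei of that class. Crtam had the most UMIs in tumor-like nuclei and fell under this limit, so its share in T/NK-like nuclei was not compared.

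**Figure D4:**
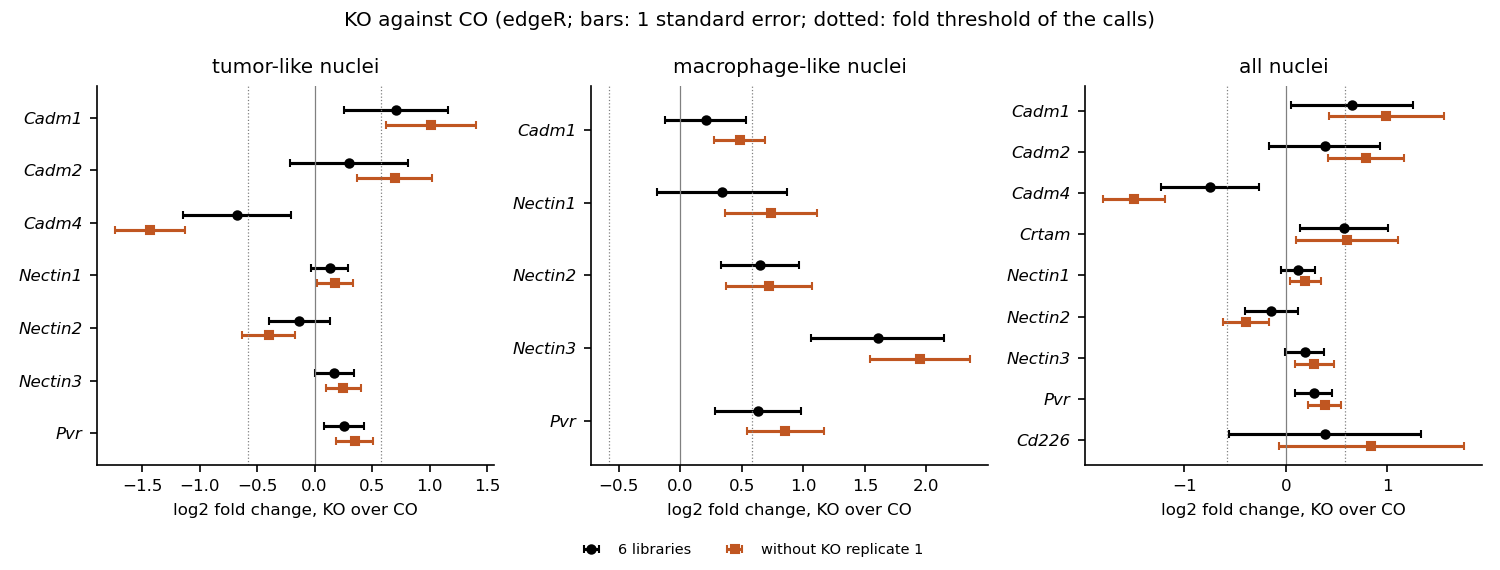
Log2 fold change of KO over CO (horizontal axis) of each tested member in tumor-like, macrophage-like and all nuclei, from edgeR on 6 libraries (black) and without KO replicate 1 (orange); bars are 1 standard error and dotted lines the fold threshold of 0.58. Nectin3 in macrophage-like nuclei (1.60 and 1.95) lies farthest from 0 in its panel. In tumor-like nuclei Cadm1 (0.71 and 1.01) lies above 0 and Cadm4 (-0.68 and -1.43) below it.

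A list of 30 partners of these proteins held 4 further receptors and ligands, 13 nectin-binding and junction genes and 13 Cadm-binding scaffolds. Of these, 27, 25, 23 and 9 were tested in the 4 sums and 0 were called by edgeR, with 0, 1, 2 and 1 at an unadjusted p under 0.05. Their median log2 fold change was 0.26, 0.22, 0.34 and 0.51, against -0.02, -0.02, 0.01 and 0.03 over all genes tested, and 20, 17, 17 and 8 of them were above 0. The partners with the highest mean level were Itgav, an integrin that associates with nectins (706 CPM in macrophage-like and 323 CPM in tumor-like nuclei), Ctnna1 or alpha-catenin (165 and 253 CPM), the band 4.1 gene Epb41l2 (569 and 227 CPM) and the PDZ scaffold Dlg1 (228 and 402 CPM). Without KO replicate 1, 9 of 26 partners tested were called in tumor-like nuclei, where 20.8% of all genes were. Of these, 8 were higher, Cask, Cdh2, Dlg1, Epb41l1, Epb41l2, Epb41l3 and Tiam1 among them, and Lin7c was lower. In macrophage-like nuclei 6 of 23 were called, where 16.2% of all genes were, and Afdn, Cask, Cdh2, Dlg1, Epb41l3 and Pard3 were higher. Each of these 6 had a higher summed level in tumor-like than in macrophage-like nuclei. The tumor markers in macrophage-like nuclei stood at 3954 and 3142 CPM in KO replicates 2 and 3. In CO they stood at 711, 730 and 1501 CPM, and their part in these calls was not tested.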

How the data were processed

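Single-nucleus libraries (10x Chromium 3′) were made from 3 CO and 3 KO tumors. The authors deposited raw UMI counts per gene and barcode, with Cell Ranger 3.0.2 and GRCm38 in their processing notes and 3.1.0 in the matrix headers; Seurat 5.2.1 is also noted there. The counts are whole numbers, so no correction for free RNA is seen in them. Barcodes with 100 to 7500 genes and at most 20% mitochondrial UMIs were kept, and the highest doublet scores were removed at 0.8% per 1000 barcodes (500 nuclei). Each nucleus was classed by a mixture model on marker counts at a posterior of 0.95, without the members. Levels are CPM, the UMIs of a gene per 1000000 UMIs of that class in that library, and are compared between classes within a gene only. KO was compared with CO by edgeR 4.0.16 (quasi-likelihood, TMM, low-count filter, Benjamini-Hochberg over all genes; SE from the fold change and F), with DESeq2 1.42.0 as an alternative, run in R 4.3.3 and tested on simulated data. Library totals of 13252572 to 22057084 UMIs set the precision, and intervals cover counting error only. The members and gene lists were chosen with earlier results of these data known. Named genes were all members, called partners (or the 4 of highest level), 5 fixed partners and the 3 genes most like each member with at least 300 UMIs. A called partner gene is not reported here. The labels do not say whether replicate numbers pair the libraries, and the main fit did not pair them. Alternatives were the model, scaling, filters, class rule, thinning and each library left out.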

Additional observations from a re-analysis of the deposited data

How the results depend on the processing

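With the replicate number as a block, 0 genes were called in each of the 4 sums. Genes at an unadjusted edgeR p under 0.05 then numbered 1065, 1845, 711 and 174, against 661, 866, 642 and 146 without the block. Deviations of same-numbered CO and KO libraries correlated at 0.52, -0.31 and 0.40 over all nuclei. The labels do not say whether the numbers pair the libraries, and these values do not settle it. DESeq2 called 10 genes in all nuclei, 22 in tumor-like and 2 in macrophage-like nuclei, and without a low-count filter edgeR called 78 in T/NK-like nuclei. Leaving out 1 library in turn gave 0 to 0 calls in all nuclei, 0 to 2741 in tumor-like, 0 to 1642 in macrophage-like and 0 to 19 in T/NK-like nuclei, the highest each without KO replicate 1. Members with the lowest library of 1 class above the highest library of both others numbered 4, and 3 to 6 under other class rules and filters (4 to 6 with 1 library left out). Members whose thinned shares did not overlap between CO and KO numbered 0, and 1 at 500 UMIs, 1 without thinning and 0 to 4 with 1 library left out. Levels moved by less than 1 SD in 113 of 120 alternatives. Under alternatives that kept all libraries, 8 share differences turned direction and 16 did not, and 2 fold changes turned. With at least 500 genes and under 5% mitochondrial UMIs per nucleus, the all-nuclei log2 fold change was -0.028 for Cadm1 and 0.10 for Nectin2. The share difference (KO minus CO, percentage points) became -0.971 for Cadm2 without thinning, 0.292, 0.591 and 1.38 for Nectin3 at 500 UMIs, without thinning and under a stricter class rule, 0.406, 3.17 and 1.25 for Pvr under the same settings, and -4.38 for Cd226 at 500 UMIs. With 1 library left out, the all-nuclei log2 fold change ran from -0.42 to 0.99 for Cadm1, -0.34 to 0.79 for Cadm2, -1.14 to 1.42 for Cd226 and -0.39 to 0.0008 for Nectin2. It ran from -0.22 to 0.70 for Cadm2 in tumor-like, -0.15 to 0.48 for Cadm1 in macrophage-like and -0.50 to 1.03 for Cd226 in T/NK-like nuclei. The share difference ran from -6.17 to 8.63 for Cadm1, -0.420 to 1.54 for Cadm2, -0.622 to 0.149 for Nectin3 and -0.511 to 0.371 for Pvr. The cause of these moves was not tested.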

Other observations

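Cadm1 was also counted in nuclei outside the classes described above. In the comparison of KO with CO these nuclei entered the all-nuclei sum alone. Nuclei with dendritic markers and those of another class (32 nuclei) held 116 Cadm1 UMIs, a level of 1358 CPM (95% Poisson interval 1122 to 1629). Without KO replicate 3, which held 54 of them, the level was 961 CPM (737 to 1232). The 830 nuclei with no class held 277 UMIs at 407 CPM (361 to 458). Without KO replicate 3, which held 162 of these, it was 284 CPM (235 to 341). Skeletal muscle-like nuclei (48) held 21 UMIs at 232 CPM (144 to 354), or 145 CPM (53.1 to 315) without CO replicate 3, which held 15 of them, and plasmacytoid dendritic-like nuclei (28) held 3 UMIs and adipocyte-like nuclei (53) held 2. Nectin3 had 4 UMIs in the plasmacytoid dendritic-like nuclei, at 128 CPM (34.7 to 327).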
